A study of Homo sapiens with 6 samples.

Results

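Histamine and the eicosanoids are small mediators made by mast cells, basophils, platelets and myeloid cells, and 10 genes of their synthesis were examined in HEL cells, a human erythroleukemia cell line. They were chosen by name, for their roles in histamine synthesis and storage and in prostaglandin, thromboxane and leukotriene synthesis, with the comparison of the groups already known, so their choice is no evidence of a response. All 10 were among the 31999 genes listed. RNA came from 3 libraries of cells carrying shCtrl, a non-targeting lentiviral hairpin, and 3 libraries of cells carrying shTMIGD2, a hairpin against TMIGD2, a receptor of the CD28 family. Both groups were puromycin-selected cultures of the same cell line, and the labels do not say which of the study's TMIGD2 hairpins was used. CPM are read counts on a scale set by library size, with a normalization not given in the sources used here. The values below are the authors' mean log2 CPM over all 6 libraries. Such a mean has no spread between libraries, does not part shTMIGD2 from shCtrl, and depends on both groups. In bulk RNA a level held by all cells and a higher level in a few cells cannot be told apart. The deposited comparison of the groups was not used, and the effect of TMIGD2 knockdown on these genes was not analysed here.

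Histidine decarboxylase makes histamine in a single step, and a vesicular monoamine transporter loads it into granules. Eicosanoids start from arachidonic acid released from membranes by phospholipases. The cyclooxygenases PTGS1 and PTGS2 turn it into prostaglandin H, from which HPGDS makes prostaglandin D and TBXAS1 makes thromboxane A. In the other branch ALOX5, helped by the membrane protein ALOX5AP, makes leukotriene A, which LTA4H hydrolyses to leukotriene B and LTC4S conjugates with glutathione to the first cysteinyl leukotriene.

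The mean level of the 10 genes spanned from -0.02 to 8.69 on the log2 CPM scale. Their median was 5.10, against -0.97 for all 31999 genes and 4.55 for the 14000 genes at 0 or more. At 0 or more were 9 of the 10 genes, against 43.8% of all genes listed. Among genes whose names matched the GENCODE annotation, as all 10 did, the share was larger, at 12925 of 23371. The top 10% of genes listed, which starts at 6.22, held 3 of the 10 (HDC, PTGS1 and LTA4H). Of the 10 genes, 6 lay above the median of the genes at 0 or more. No sequencing depth per library can be taken from this table. The lowest value listed was -3.76, with 154 genes exactly tied at it, and marks the bottom of the scale. Many more lay just above it: 4835 of the 31999 genes were between -4 and -3.5. As a check of the cell line, all 10 erythroid, megakaryocytic and HEL marker genes were at 0 or more and 8 were in the top 10%, with ITGA2B, the platelet integrin subunit, at 10.54, HBG1, a fetal globin, at 9.72 and GATA1 at 7.97. Of 8 genes of T, B, endothelial and stromal cells, 5 had a value and 2 of these were at 0 or more, with PECAM1, which megakaryocytic cells also express, at 7.24 and CDH5 at 0.31. TMIGD2 itself had a mean of 4.08, which joins knocked-down and control cells.

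**Figure D1:**
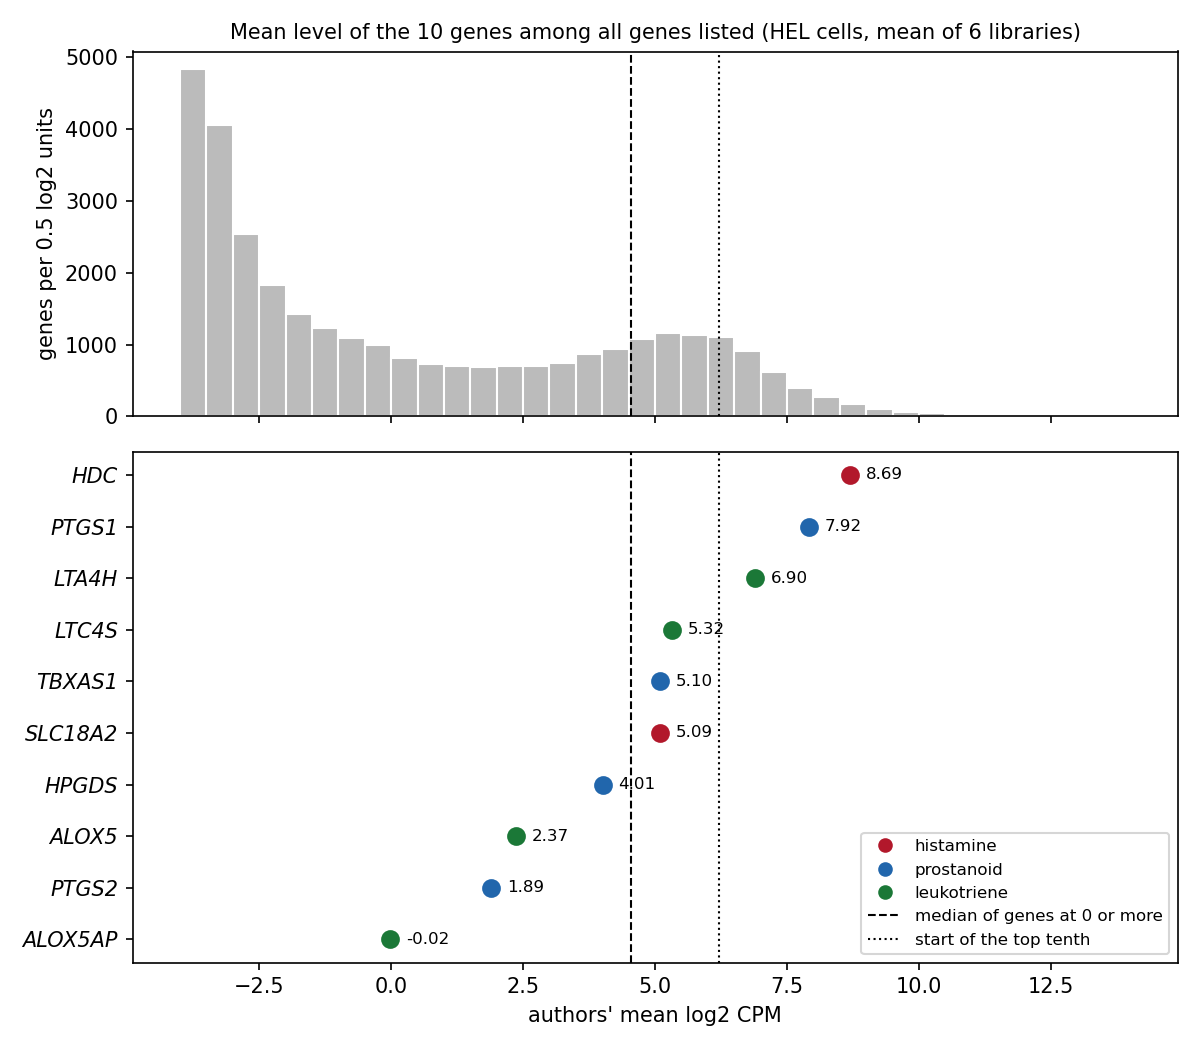
Upper panel, number of genes per 0.5 log2 units of the authors' mean log2 CPM over 6 libraries, for all 31999 genes. Lower panel, 1 point per gene on the same axis, coloured by pathway, with no error bars since the table holds no spread. HDC, PTGS1 and LTA4H lie to the right of the dotted line at 6.22, where the top 10% of genes starts, and ALOX5AP lies at -0.02.

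To set the genes against each other, levels were scaled for length, as log2 CPM per kb of the longest GENCODE transcript. Counts of genes at 0 or more and shares of all genes below a gene use log2 CPM without this scaling. On the per kb scale the order was HDC at 7.42, PTGS1 at 5.60, LTC4S at 5.46, LTA4H at 4.29, TBXAS1 at 3.97, HPGDS at 3.34, SLC18A2 at 3.05, ALOX5 at 1.04, ALOX5AP at -0.31 and PTGS2 at -0.34. Above the per kb median of matched genes at 0 or more, 2.90, lay 7 of the 10. The gaps between neighbours were smallest for ALOX5AP and PTGS2 (0.03) and for PTGS1 and LTC4S (0.14), and largest between SLC18A2 and ALOX5 (2.01) and between HDC and PTGS1 (1.82). With the median transcript as the length, SLC18A2 and ALOX5 were both at 3.10, so that the first of these gaps closed, and HDC and PTGS1 were at 8.14 and 6.94. Whether neighbours differ beyond the spread between libraries was not tested, since no spread is given. With all annotated exons joined as the length, 4 of the 45 pairs changed order: TBXAS1 fell below HPGDS and SLC18A2, HPGDS fell below SLC18A2, and ALOX5AP fell below PTGS2.

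**Figure D2:**
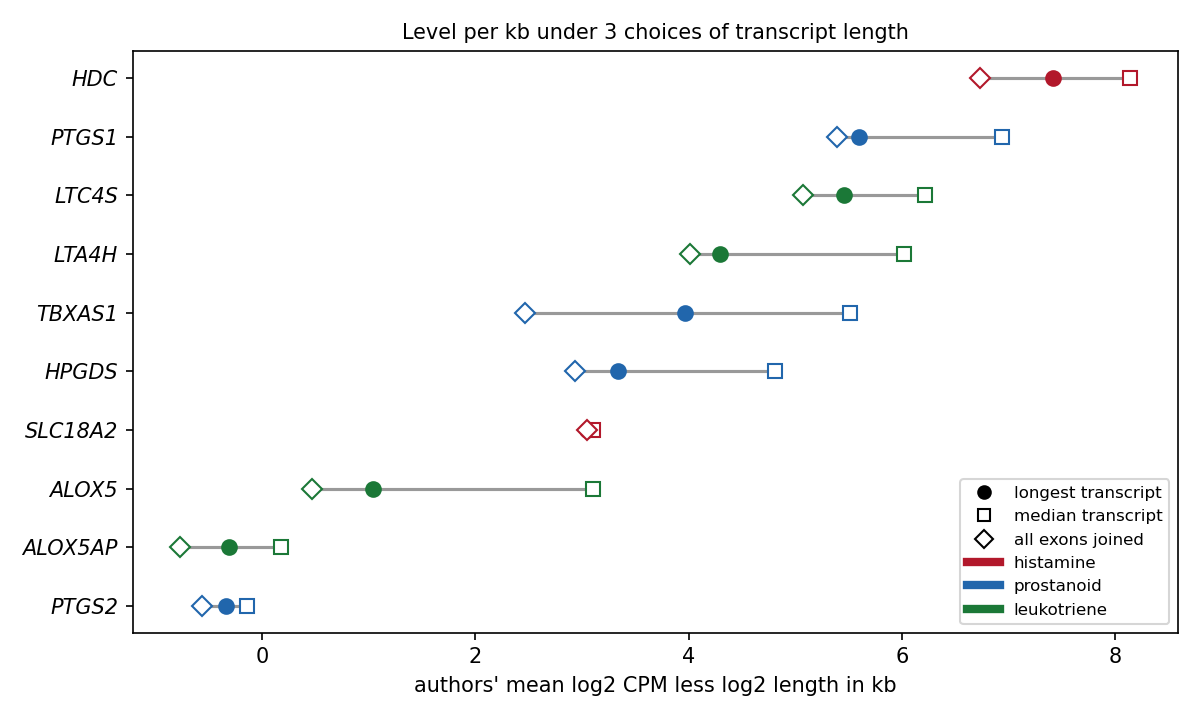
Authors' mean log2 CPM less the log2 of transcript length in kb, for the 10 genes, under the longest transcript (filled circle), the median transcript (square) and all exons joined (diamond). The grey line joins the 3 values of a gene and is no error; for SLC18A2 the circle lies under the diamond. HDC is highest under each length, and ALOX5AP and PTGS2 are the lowest pair.

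HDC (ENSG00000140287.11), histidine decarboxylase, occupies bases 50241947 to 50265965 of chromosome 15, minus strand (GRCh38 coordinates of GENCODE 44, as for the other genes). Its mean of 8.69 on the log2 CPM scale, or 412 CPM, ranked 360 among the 31999 genes. HDC was thus above 98.9% of the genes listed, and per kb above 98.8% of the matched genes. SLC18A2 (ENSG00000165646.14), the vesicular monoamine transporter VMAT2, lies on the plus strand of chromosome 10 from 117241093 to 117279430. It had a mean of 5.09 on the log2 CPM scale, or 34.2 CPM. Per kb of the longest transcript HDC was at 20.7 times the level of SLC18A2, with the median transcript at 32.7 times and with all exons joined at 12.8 times. The exons of SLC18A2 share 2157 bases, 52.3% of their length, with exons of PDZD8 on the opposite strand, and PDZD8 had a mean log2 CPM of 8.65. The strand setting of the authors' counting is not given in the sources used here, so the level of SLC18A2 is uncertain.

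The other histamine pathway genes with a value were at lower levels than HDC and SLC18A2. Of 9 further genes of histamine breakdown, transport and receptors, 8 had a value and 2 of these were at a log2 CPM of 0 or more. These were HRH1, the H1 receptor, at 1.41 and SLC29A4, a plasma membrane monoamine transporter, at 0.75. HNMT, which methylates histamine inside cells, was at -0.26, and AOC1, the secreted diamine oxidase, at -3.57, near the bottom of the scale. The other vesicular monoamine transporter, SLC18A1, was at -1.93. Among 7 genes of other amines, 6 had a value and only MAOA, a mitochondrial amine oxidase, was at 0 or more, at 3.92. DDC, which makes dopamine and serotonin from their precursors, was at -3.48, and TPH1, the first enzyme of serotonin synthesis outside neurons, at -0.46. Of the measured genes of both lists MAOA was the highest per kb, at 0.85 on the log2 scale, against 3.05 for SLC18A2 and 7.42 for HDC.

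The cyclooxygenase genes had unlike levels. PTGS1 (ENSG00000095303.17), the constitutive cyclooxygenase and the one of platelets, lies on the plus strand of chromosome 9 from 122370530 to 122395703. PTGS1 had a mean log2 CPM of 7.92 and 243 CPM, above 97.7% of genes. PTGS2 (ENSG00000073756.13), the inducible enzyme, occupies bases 186671791 to 186680922 of chromosome 1, minus strand. PTGS2 had a mean log2 CPM of 1.89 and 3.71 CPM, above 65.0% of all genes but above only 19.9% of the genes at 0 or more. Per kb of the longest transcript PTGS1 was at 61.4 times the level of PTGS2. The ratio was 62.0 with all exons joined and 135 with the median transcript. The exons of PTGS2 share 219 bases, 3.99% of their length, with the antisense RNA PACERR, which had a log2 CPM of -2.40.

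Because these 2 genes make the same product at unlike levels, the 250 bases before their start sites are shown, from RefSeq promoter windows on GRCh38.p14. Capitals mark the matches to TATAAA, searched on the gene's strand, and on both strands to the CCAAT box, to the GC box GGGCGG and to the GATA motifs AGATAA or else TGATAA. The PTGS1 window is chr9:122370283-122370532 on the plus strand, and its last 3 bases lie in an annotated exon. The PTGS2 window is chr1:186680424-186680673 on the minus strand and lies in no annotated exon of the gene. It does lie inside the GENCODE span of PTGS2, which reaches 186680922.
PTGS1: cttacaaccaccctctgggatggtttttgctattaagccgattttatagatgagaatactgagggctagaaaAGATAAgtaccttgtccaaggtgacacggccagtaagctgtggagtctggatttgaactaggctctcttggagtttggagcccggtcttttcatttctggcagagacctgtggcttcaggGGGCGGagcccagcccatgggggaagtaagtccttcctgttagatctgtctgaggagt
PTGS2: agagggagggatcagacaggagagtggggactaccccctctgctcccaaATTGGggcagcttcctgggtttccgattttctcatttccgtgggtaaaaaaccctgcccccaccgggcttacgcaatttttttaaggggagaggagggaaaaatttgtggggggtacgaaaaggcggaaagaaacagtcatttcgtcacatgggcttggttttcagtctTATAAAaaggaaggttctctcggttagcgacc

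In the PTGS1 window AGATAA, a motif of GATA factors, began 178 bases and GGGCGG 58 bases before the start, and there was no TATAAA. A second RefSeq start of PTGS1, further into the gene, had GGGCGG on its opposite strand, 202 bases before it. In the PTGS2 window TATAAA began 32 bases before the start and CCAAT, on the opposite strand, 201 bases before it. Of the 10 genes, 9 had a window, 10 windows in all, and ALOX5 had none. TATAAA was in 3 of the 10 windows (PTGS2, HPGDS and TBXAS1), against 6.80% of 35114 promoters. It began 28 bases before the start in HPGDS but 140 bases before it in TBXAS1. The TBXAS1 window, from 139829014 to 139829263, lies inside the GENCODE span of that gene, which begins at 139777051. The windows of PTGS2 and LTA4H also lie inside the GENCODE spans of their genes. A GATA motif was in 3 (PTGS1, HPGDS and ALOX5AP), against 14.6%, and GGGCGG in 5, against 42.6%. The CCAAT box was in 1 (PTGS2), against 32.0%. The 10 windows ranged from 42.0% to 78.8% GC, with SLC18A2 highest, and 4 were above the median of 58.0% over all promoters. A match is a stretch of letters and not a bound site, and the 239 bases of the HDC window that lie in exons of GENCODE transcripts of HDC show that RefSeq and GENCODE starts differ.

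Downstream of prostaglandin H, both synthases were measured at intermediate levels. TBXAS1 (ENSG00000059377.19), thromboxane synthase, lies on the plus strand of chromosome 7 from 139777051 to 140020325 and had a mean log2 CPM of 5.10, or 34.3 CPM. HPGDS (ENSG00000163106.11), the hematopoietic prostaglandin D synthase, occupies bases 94298535 to 94342876 of chromosome 4, minus strand, and had a mean log2 CPM of 4.01, or 16.1 CPM. Per kb TBXAS1 was at 1.55 times the level of HPGDS with the longest transcript and 0.727 times with all exons joined, so their order depends on the length used. PTGS1 was at 3.08 times the level of TBXAS1 and 4.79 times that of HPGDS per kb of the longest transcript. With all exons joined, PTGS1 was at 7.57 times the level of TBXAS1.

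Of 8 other prostanoid synthase genes 6 had a value and 5 were at a log2 CPM of 0 or more. PTGES3, a prostaglandin E synthase that is also a co-chaperone, was at 9.11, CBR1, a carbonyl reductase that can act on prostaglandin E, at 5.54, PTGES2 at 5.17 and AKR1C3, a prostaglandin F synthase, at 2.94. PTGDS, the lipocalin-type prostaglandin D synthase, was at -3.66, so HPGDS was the prostaglandin D synthase detected above 0. For PTGES and PTGIS no value was used here. Of 9 phospholipase A2 genes, 4 were at a log2 CPM of 0 or more, among them the cytosolic PLA2G4A at 4.67 and PLA2G12A at 4.22.

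The leukotriene branch had its lowest levels at its first step, also per kb under each of the 3 lengths. ALOX5 (ENSG00000012779.12), on the plus strand of chromosome 10 from 45374176 to 45446119, had a mean log2 CPM of 2.37 and 5.18 CPM. ALOX5AP (ENSG00000132965.10), on the plus strand of chromosome 13 from 30713478 to 30764426, had a mean log2 CPM of -0.02 and 0.986 CPM, and was the only one of the 10 genes below 0. It still lay above 56.1% of the genes listed. LTA4H (ENSG00000111144.10), at bases 96000753 to 96043520 of chromosome 12, minus strand, had a mean log2 CPM of 6.90 and 120 CPM. LTC4S (ENSG00000213316.10), on the plus strand of chromosome 5 from 179793980 to 179796647, had a mean log2 CPM of 5.32 and 40.0 CPM. Its longest transcript is the shortest of the 10 genes at 909 bases, and per kb LTC4S lay above 93.7% of matched genes, against 83.5% of all genes without length.

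Per kb of the longest transcript LTA4H was at 9.51 times and LTC4S at 21.4 times the level of ALOX5, and ALOX5 was at 2.55 times that of ALOX5AP. With the median transcript LTC4S was at 8.70 times the level of ALOX5, and ALOX5 at 7.56 times that of ALOX5AP. LTC4S was at 2.25 times the level of LTA4H per kb, and at 1.15 times with the median transcript. The exons of LTA4H share 804 bases, 10.9% of their length, with a long noncoding RNA on the opposite strand that was not listed under its identifier.

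LTC4S and ALOX5AP belong to the MAPEG family of small membrane proteins, of which MGST1 was at a log2 CPM of 6.39, MGST2, which can also make leukotriene C, at 6.17 and MGST3 at 4.47. Per kb of the longest transcript MGST2 was at 5.33 and LTC4S at 5.46 on the log2 scale, and with the median transcript at 6.60 and 6.22, so their order depends on the length used. Of the 5 other lipoxygenases only ALOX12, the platelet enzyme, was at 0 or more, at 4.60. Per kb of the longest transcript ALOX12 was at 3.35 on the log2 scale, against 1.04 for ALOX5, and with the median transcript at 4.57 against 3.10. ALOX15 was at a log2 CPM of -3.48.

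Of 13 genes of eicosanoid breakdown and transport, 6 were at a log2 CPM of 0 or more and 3 in the top 10%. These were ABCC4, an exporter of prostanoids and other organic anions, at 9.59, HPGD, which inactivates prostaglandins by oxidation, at 9.35, and ABCC1, an exporter of leukotriene C, at 6.44. Per kb HPGD was above HDC on the log2 scale, at 7.81 against 7.42 with the longest transcript and 6.88 against 6.73 with all exons joined. The dipeptidases and transferases that trim leukotriene C were low, with DPEP2 at a log2 CPM of 0.28, GGT5 at -0.31 and GGT1 at -3.05. Of 16 eicosanoid receptor genes 8 were at 0 or more, among them the prostaglandin E receptor PTGER3 at 6.61, the prostacyclin receptor PTGIR at 5.36 and the thromboxane receptor TBXA2R at 3.96. Per kb of the longest transcript PTGIR was at 4.30 and PTGER3 at 3.65 on the log2 scale, while with the median transcript they were at 5.52 and 5.67. The prostaglandin D receptors were at 2.39 (PTGDR2) and -3.57 (PTGDR). The leukotriene receptors were at 2.62 (LTB4R), -0.26 (LTB4R2), 0.49 (CYSLTR1) and -1.76 (CYSLTR2). Over all these lists, 66 of 70 pathway genes had a value, and their median was -0.29. At 0 or more were 30 of the 66 (45.5%), against 43.8% of all genes listed. Genes matched to the annotation, as these 66 were, had a larger share at 0 or more, 12925 of 23371.

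**Figure D3:**
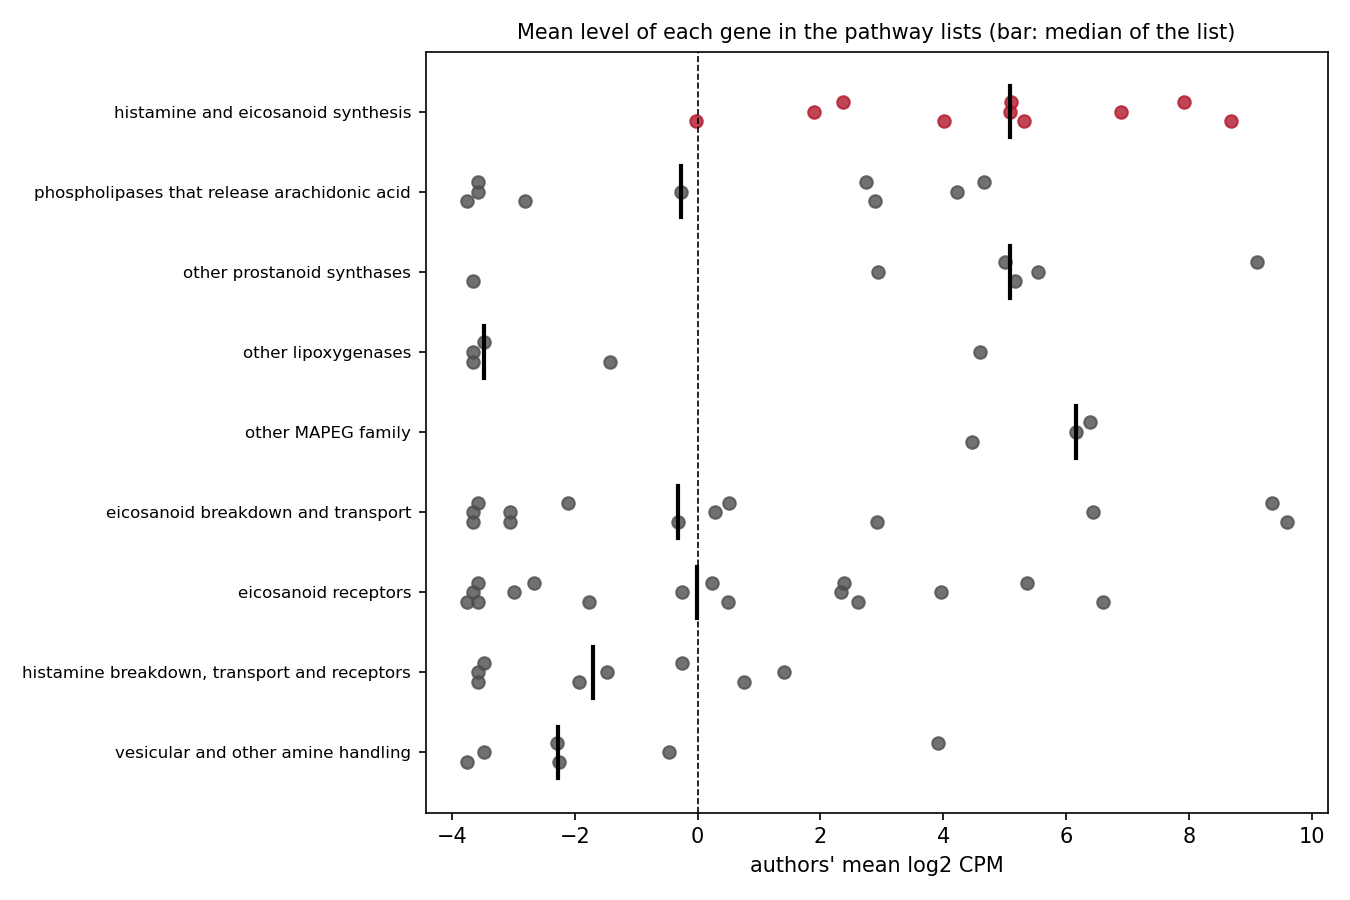
Authors' mean log2 CPM of each gene with a value in the 10-gene set (red) and in the other pathway lists (grey), with the median of each list as a bar and a dashed line at 0; vertical offsets within a list only separate points. The 10 genes have a median of 5.10, and the histamine breakdown, transport and receptor genes lie between -3.57 and 1.41.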

How the data were processed

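RNA-seq libraries of HEL cells (3 shCtrl, 3 shTMIGD2) were grouped by their titles. Per the labels and the paper's methods, the authors enriched poly(A) RNA with a directional kit, aligned reads to hg38 with STAR 2.6.1b and counted fragments per refSeq gene with HTSeq 0.6.1. The submitters' processing notes also name DESeq2 3.11 and, with no version, edgeR as tools of the authors. The deposited table gives 1 mean log2 CPM per gene over the 6 libraries. Its normalization, filter and prior count are not given in the sources used here. Its other 4 columns hold the authors' own comparison of the groups (fold change on the log2 scale, F, and raw and adjusted p-values) and were not used. It has 0 columns of values per library, so the planned tests between groups, which needed them, were not run, and depth and its precision are unknown.

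CPM was computed as 2 to the power of the mean log2 CPM. Ranks were taken over the 31999 genes. Transcript lengths came from GENCODE 44 on GRCh38, which is not the annotation the fragments were counted on. 23371 gene names (73.0%) matched, 566 of them by an older RefSeq symbol, and 92.3% of the genes at 0 or more did. 24 names that a spreadsheet had turned into dates were left unmatched. Promoter windows came from RefSeq (GRCh38.p14). The ranking was tested on simulated data, and Python 3.11.15 with pandas 2.3.3 was used. All 10 genes and the fixed pathway lists were named by rule. The genes and lists were chosen with earlier results of these data known.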

Additional observations from a re-analysis of the deposited data

How the results depend on the processing

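The values describe a mean over both groups, and no result rests on a test. Any change of a value was counted as a move, since no spread between libraries is given. The median share of genes below the 10 genes was 81.8% over all genes listed, 58.5% over the 14000 genes at a log2 CPM of 0 or more (without ALOX5AP, which that limit removes), and 79.7% per kb of the longest transcript. Chosen after seeing the data, it was 69.0% per kb over matched genes at 0 or more. The median log2 CPM per kb of the 10 genes was 3.65 with the longest transcript, 5.16 with the median transcript and, chosen after seeing the data, 2.99 with all exons joined. With the median transcript 0 of 45 pairs of genes changed order, and with all exons joined 4 did. The number of genes at 0 or more was the same in all 11 lists with current symbols only. No gene of the lists had been found under an older symbol, so these counts could not change.

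The alternatives that need values per library were not run: DESeq2 and its size factors, no filter on low counts, the pseudocount, the replicate number as a block and leaving out each library. No paired analysis was possible because each gene has 1 mean over all 6 libraries. Genes near the lowest value listed, -3.76, cannot be told from genes with no reads.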
